A study of Mus musculus with 9 samples.

Results

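The Egr, Nr4a and Ier immediate-early genes were followed through unloading and reloading of the mouse gastrocnemius, a calf muscle. The set was chosen by symbol and holds 10 genes, Egr1, Egr2, Egr3, Nr4a1, Nr4a2, Nr4a3, Ier2, Ier3, Ier5 and Dusp1, of 14851 genes that could be tested in the series. The series holds 4 muscle samples of mice kept in ordinary cages (Control), 2 samples taken at day 10 of hindlimb unloading (Unloading) and 3 samples taken at day 1 of the weight bearing that followed such unloading (Reloading). During unloading a line fixed to the tail kept the hind limbs off the floor while the forelimbs still carried weight. Per the labels the mice were male, wild-type C57BL/6 in every group (C57BL/6J in the study's text), and their age is not given in the sources used here. The study's methods name female mice for the unloading procedure. Each library held at most 5 counts of Xist and at least 1013 counts of the Y-linked gene Ddx3y.

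Immediate-early genes are transcribed within minutes of a stimulus, without the need for new protein, and their transcripts are mostly short-lived. In skeletal muscle, contraction, stretch, injury and adrenergic signals are known triggers, acting through MAP kinases, calcium and cyclic AMP on factors such as SRF, its ternary complex partners and CREB that are already present. Egr1, Egr2 and Egr3 encode zinc-finger transcription factors that bind GC-rich sites, and Nab1 and Nab2 encode their corepressors. Nr4a1 (Nur77), Nr4a2 (Nurr1) and Nr4a3 (Nor1) encode orphan nuclear receptors, which in muscle have been linked to glucose and fat use. Ier2, Ier3 and Ier5 encode short-lived regulators of growth, survival and stress responses, and Dusp1 encodes a nuclear phosphatase that switches MAP kinases off.

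The libraries held between 9252443 and 19612101 reads counted in genes. Values are given in CPM, the reads of a gene per 1e+06 reads of the library, scaled with trimmed mean of M-values (TMM) factors. Transcripts of skin stood out in Control 2 and Reloading 1, as Krt2, a keratin, reached 1086 and 502 counts there and no more than 3 elsewhere. Mitochondrial genes took between 6.49% and 6.75% of the counts in Reloading, against 9.61% to 10.1% in Unloading and 9.36% to 10.6% in Control. With plain library totals in place of TMM, the middle value of the log2 fold changes over all tested genes moved from 0.03 to 0.27 in Reloading against Unloading, and from 0.01 to 0.25 in Reloading against Control. Changes in Reloading are therefore relative to the TMM scaling.

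Of the 10 genes, 9 were higher in Reloading than in Unloading at an adjusted p under 0.05 in edgeR's quasi-likelihood test, and none was lower. Among all tested genes 18.5% were higher and 19.0% lower in this comparison. The median log2 fold change of the 10 genes, the fitted log2 ratio of group levels, was 1.73, beside 0.03 over all tested genes. All 10 passed the filter on low counts, but Egr2, Egr3 and Nr4a2 did so only through the Reloading libraries. Of the 7 genes that pass without Reloading, 6 were higher in Reloading, as were 17.9% of the 14141 genes that do so. The middle log2 fold change of these 7 was that of Ier5, 0.97, beside 0.00 over those 14141 genes. Among all 10 genes the largest log2 fold changes were those of Egr3, Egr1 and Nr4a3, and Ier3 did not pass the threshold. Against Control, 9 of the 10 genes were higher in Reloading, where 22.1% of all tested genes were higher and 21.3% lower, and the exception was Dusp1. Of the 7 genes that pass without Reloading, 6 were higher than in Control, beside 21.5% of those 14141 genes. Between Unloading and Control only Egr1 passed, by a narrow margin that 12 of 18 alternative settings did not keep.

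**Figure D1:**
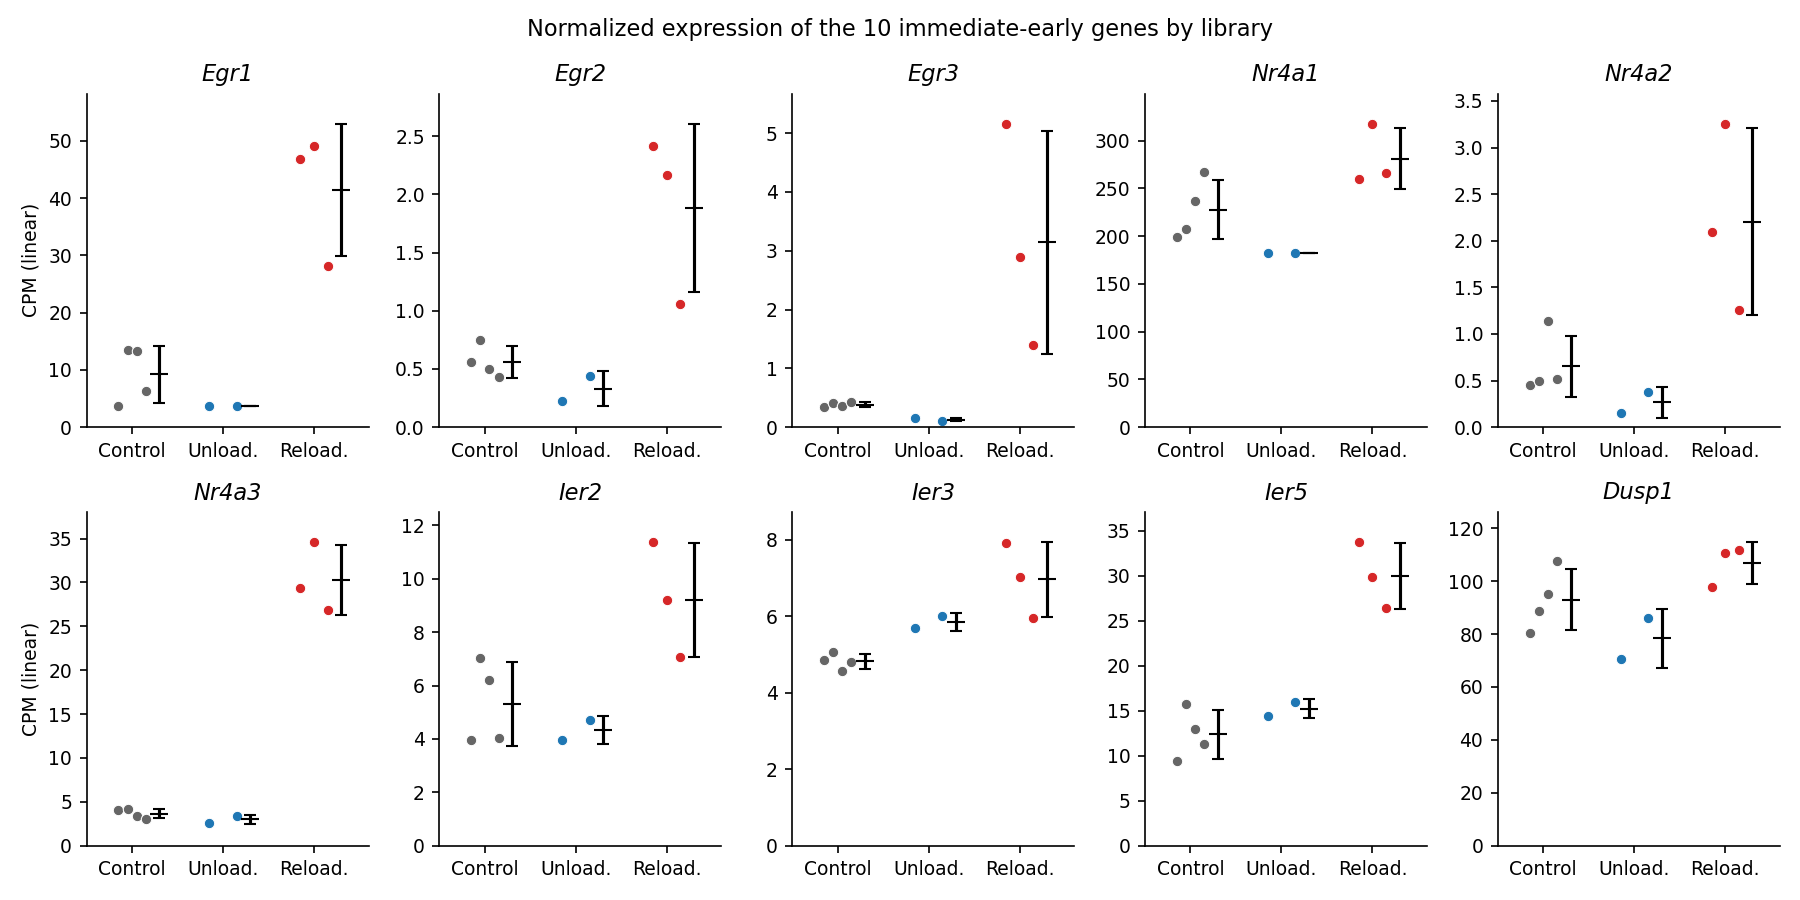
Normalized expression in CPM (y axis, linear, starting at 0, a scale of its own for each gene) of the 10 genes in each library (points) of Control (n = 4), Unloading (n = 2) and Reloading (n = 3), with the mean and SD of each group in black beside the points. The Reloading points of Egr1, Egr2, Egr3, Nr4a2 and Nr4a3 lie above every other point, while those of Nr4a1 and Dusp1 share their range with Control.

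The levels differed widely between the genes. On a scale per exon length, in CPM per kilobase, mean Control levels ran from Nr4a1 with 64.9 and Dusp1 with 28.1, through Ier3 with 4.26, Ier5 with 3.77, Ier2 with 3.48 and Egr1 with 2.05, down to Nr4a3 with 0.612, Egr2 with 0.165, Nr4a2 with 0.161 and Egr3 with 0.0873. Nr4a1 stood at percentile 96.3 of all tested genes on this scale and Egr3 at percentile 1.63. Unloading kept the same order of mean levels per length. In Reloading, Egr1 with 9.23 CPM per kilobase had moved from the sixth to the third place, next to Ier5 with 9.15, and Egr3 with 0.714 stood above Egr2 with 0.554 and Nr4a2 with 0.543. The genes with the highest Control levels, Nr4a1 and Dusp1, were among the 3 with the smallest log2 fold changes in Reloading against Unloading.

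The sequences before the start sites of members that rose from Unloading to Reloading are shown, with short motifs on which cyclic AMP and SRF signals are known to act. RefSeq promoter windows, from 250 bases before to 50 bases after a start site on GRCm38.p6, were found for 7 of the 10 genes, and none was used for Egr1, Egr3 and Ier2. The runs of the 6 such genes with a window are printed 5′ to 3′ on the gene's strand, end before the nearest annotated exon, and carry in capitals each match to the core of the cyclic AMP response element (CRE, TGACG on either strand) and each CArG box, the site bound by SRF. They come from chr15:101266596-101266845 on the plus strand for Nr4a1, chr2:57124004-57124253 on the minus strand for Nr4a2, chr4:48045055-48045152 on the plus strand for Nr4a3, chr10:67537619-67537868 on the plus strand for Egr2, chr1:155099637-155099886 on the minus strand for Ier5 and chr17:26508520-26508722 on the minus strand for Dusp1. Egr2 has other windows, and the one printed was chosen for its motifs. The run of Ier5 holds no match to either motif and so has no capitals.
Nr4a1: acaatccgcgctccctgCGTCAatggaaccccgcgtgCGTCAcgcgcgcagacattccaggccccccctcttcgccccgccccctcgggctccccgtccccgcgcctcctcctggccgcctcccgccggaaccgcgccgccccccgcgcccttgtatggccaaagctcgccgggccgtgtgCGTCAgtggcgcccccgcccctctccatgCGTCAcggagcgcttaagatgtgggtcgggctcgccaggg
Nr4a2: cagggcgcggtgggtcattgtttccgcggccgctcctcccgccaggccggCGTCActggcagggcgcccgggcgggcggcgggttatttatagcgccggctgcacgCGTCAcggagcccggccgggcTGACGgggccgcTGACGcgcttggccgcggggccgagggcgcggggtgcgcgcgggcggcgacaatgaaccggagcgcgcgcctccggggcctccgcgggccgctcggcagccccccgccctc
Nr4a3: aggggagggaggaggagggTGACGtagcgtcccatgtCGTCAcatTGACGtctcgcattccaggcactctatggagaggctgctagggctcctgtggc
Egr2: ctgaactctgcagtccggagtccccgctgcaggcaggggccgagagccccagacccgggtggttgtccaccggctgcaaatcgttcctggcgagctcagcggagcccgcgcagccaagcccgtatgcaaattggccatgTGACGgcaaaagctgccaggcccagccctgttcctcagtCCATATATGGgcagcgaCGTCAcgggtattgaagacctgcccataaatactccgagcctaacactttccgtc
Ier5: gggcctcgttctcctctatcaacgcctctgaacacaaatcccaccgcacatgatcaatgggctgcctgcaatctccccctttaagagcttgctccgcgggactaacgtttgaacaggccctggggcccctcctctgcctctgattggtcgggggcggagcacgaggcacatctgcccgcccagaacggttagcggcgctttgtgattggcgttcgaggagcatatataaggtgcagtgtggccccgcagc
Dusp1: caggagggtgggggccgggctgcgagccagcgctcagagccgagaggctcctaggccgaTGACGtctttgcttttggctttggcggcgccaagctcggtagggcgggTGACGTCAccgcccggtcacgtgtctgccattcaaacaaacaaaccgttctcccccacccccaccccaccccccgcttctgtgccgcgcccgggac

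CRE cores were found in the windows of 5 of these 7 genes, the 3 Nr4a genes, Egr2 and Dusp1, while 20.8% of all 32851 promoter windows hold one. Each Nr4a window held 4 such matches. The full CRE, TGACGTCA, which contains the core, was found in the window of Dusp1, with its first base at position -143 from the start site, and in 1.79% of all windows. A CArG box was found in Egr2 windows, at position -72 from the start site used for the printed run, and in 1.63% of all windows. GC boxes, GGGCGG on either strand, were present in all 7 genes' windows and in 35.7% of all windows. A TATAAA match on either strand was found for Nr4a2 and in 13.6% of all windows. The Egr site GCGTGGGCG, the Nr4a site AAAGGTCA and the AP-1 site TGANTCA, searched on both strands, matched none of the 7 genes' windows, and 0.612%, 1.51% and 7.81% of all windows. The shares over all windows are per window, while a gene was counted if any of its windows held a match. The 7 genes have 11 windows. A match is a description of the letters and was not measured as a site in use.

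Egr1 rose from Unloading to Reloading with the largest number of reads behind it among the Egr genes. Its values were 3.67 and 3.72 CPM in the 2 Unloading libraries and 46.9, 49.2 and 28.1 CPM in the 3 Reloading libraries, so that the groups lay far apart. The difference was 11.2-fold, a log2 ratio of 3.48 ± 0.40 (SE, adjusted p 1.2e-05, edgeR). In Control the 4 libraries held 3.72, 13.5, 13.3 and 6.26 CPM, a mean of 9.20 ± 4.97 (SD, n = 4), with Control 1 next to the Unloading libraries and Control 2 and Control 3 well above them. Reloading was 4.35-fold above Control, a log2 ratio of 2.12 ± 0.28 (SE, adjusted p 2.61e-05). Egr1 (ENSMUSG00000038418) lies on GRCm38 chromosome 18, 34859823 to 34864984, on the plus strand.

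Egr1 was also the 1 gene of the set that passed the threshold between Unloading and Control, with a log2 ratio of -1.36 ± 0.41 (SE, adjusted p 0.0498, edgeR). Over the alternative settings this adjusted p ran from 5.06e-14, in the fit with no filter on low counts, to 0.272. The call was lost when Control 2, Control 3, either Unloading library, Reloading 1 or Reloading 2 was left out, with log2 fold changes between -1.37 and -1.13, and the robust fit gave an adjusted p of 0.235. The pooled spread of Egr1 within groups, an SD of 0.68 on the log2 CPM scale, was at percentile 98.2 of all tested genes, whose median was 0.17.

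Egr2 and Egr3 had few reads outside Reloading. Egr2 (ENSMUSG00000037868, chromosome 10, 67535475 to 67542188, plus strand), which also drives myelination in Schwann cells, had 3 and 8 counts in Unloading, between 5 and 9 in Control and 30, 30 and 16 in Reloading. Its levels were 0.225 and 0.437 CPM in Unloading and 2.42, 2.17 and 1.06 CPM in Reloading, with no overlap. The log2 fold change was 2.40 ± 0.46 (SE, adjusted p 0.000892, edgeR), and the ratio of summed reads was 5.29 with a 95% exact interval from 2.80 to 11.0, which covers counting error only. Without Unloading 2 the log2 fold change was 3.00.

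Egr3 (ENSMUSG00000033730, chromosome 14, 70077203 to 70082614, plus strand), which is needed for muscle spindles, had 2 counts in each Unloading library, between 3 and 5 in each Control library and 64, 40 and 21 in Reloading. In CPM this was 0.150 and 0.109 in Unloading against 5.16, 2.89 and 1.39 in Reloading. Reloading 1 and Reloading 3 lay furthest apart. The ratio of summed reads, Reloading over Unloading, was 23.9 with a 95% exact interval from 9.12 to 89.2. The fitted log2 fold change was 4.51 ± 0.64 (SE, adjusted p 7.82e-05, edgeR), the largest of the 10 genes, and 2.97 ± 0.44 against Control (SE, adjusted p 6.62e-05). Egr4, the remaining gene of the family, had between 0 and 3 counts in each library and was not tested.

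Markers of Schwann cells, like the Egr genes, were mostly higher in Reloading than in Unloading. Of 8 markers, 7 could be tested and 5 were higher in Reloading than in Unloading, with a summed level of 96.7 to 134 CPM in Reloading, 43.4 to 55.5 CPM in Unloading and 39.0 to 59.5 CPM in Control. Of the 5 that pass the filter without Reloading, 4 were higher, beside 17.9% of the 14141 genes that do so. Between Unloading and Control none of the 7 was called, and their median log2 fold change was 0.24. None of the 8 was at 0 in all libraries. In whole muscle, more cells of a type and more RNA per cell cannot be told apart, and the part of Schwann cells in the Egr2 and Egr3 values was not tested.

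The Nr4a genes split in size of response. Nr4a3 (ENSMUSG00000028341, chromosome 4, 48045153 to 48086447, plus strand) had 2.62 and 3.39 CPM in Unloading, between 3.09 and 4.14 CPM in Control, and 29.4, 34.6 and 26.8 CPM in Reloading. Control and Unloading shared a range, and every Reloading library stood well above it. The difference from Unloading was 9.91-fold, a log2 ratio of 3.31 ± 0.17 (SE, adjusted p 4.99e-09, edgeR), and that from Control 8.30-fold, 3.05 ± 0.13 (SE, adjusted p 3.28e-10). These were the smallest adjusted p-values of the 10 genes in both comparisons, and the log2 fold change against Unloading stayed between 3.16 and 3.56 over all alternative settings.

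Nr4a1 (ENSMUSG00000023034, chromosome 15, 101254269 to 101274795, plus strand) was the most abundant of the 10 genes and changed little in proportion. Its values were 183 and 182 CPM in Unloading, 259, 318 and 266 CPM in Reloading and 199, 207, 237 and 267 CPM in Control. Both Unloading libraries lay below all others, and Reloading overlapped with Control. Reloading was 1.54-fold above Unloading, a log2 ratio of 0.62 ± 0.12 (SE, adjusted p 0.000767, edgeR). Against Control it was 0.30 ± 0.10 (SE, adjusted p 0.0188), a call that was lost without Control 1 (adjusted p 0.0568) and without Reloading 2 (adjusted p 0.128), in a range from 0.00021 to 0.128. Unloading against Control gave -0.32 ± 0.11 (SE, adjusted p 0.081), which did not pass, and the adjusted p ran from 0.0173 to 0.344 over the alternatives.

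Nr4a2 (ENSMUSG00000026826, chromosome 2, 57106830 to 57124003, minus strand) was the rarest of the 3 receptors. It had 2 and 7 counts in Unloading, 4, 6, 16 and 6 in Control and 26, 45 and 19 in Reloading. In CPM, Unloading held 0.150 and 0.382 and Reloading 2.10, 3.25 and 1.26, with no overlap. The ratio of summed reads was 7.66 with a 95% exact interval from 3.86 to 17.3, and the log2 fold change was 2.92 ± 0.55 (SE, adjusted p 0.00076, edgeR). Without Unloading 2 it was 3.79. The highest Control library, Control 3 with 1.14 CPM, stood close to the lowest Reloading library with 1.26 CPM, and the log2 fold change against Control was 1.67 ± 0.39 (SE, adjusted p 0.003).

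The Ier genes changed less than Egr1 and Nr4a3. Ier5 (ENSMUSG00000056708, chromosome 1, 155096361 to 155099636, minus strand), a regulator of heat shock factor and phosphatase activity, had 14.4 and 16.0 CPM in Unloading and 33.7, 29.8 and 26.4 CPM in Reloading. This was a log2 ratio of 0.97 ± 0.16 (SE, adjusted p 0.000269, edgeR). In Control it had 9.36, 15.8, 13.0 and 11.3 CPM, a range that held the lower Unloading library and lay below all Reloading libraries, with 1.26 ± 0.14 for Reloading against Control (SE, adjusted p 3.58e-06).

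Ier2 (ENSMUSG00000053560, chromosome 8, 84661331 to 84662854, minus strand), a nuclear growth response protein, had 3.97 and 4.70 CPM in Unloading and 11.4, 9.18 and 7.09 CPM in Reloading. The log2 fold change was 1.07 ± 0.24 (SE, adjusted p 0.00305, edgeR). In Control the values were 3.95, 7.05, 6.22 and 4.03 CPM, and the highest of them, in Control 2, came just under the lowest Reloading library. Reloading against Control gave 0.76 ± 0.20 (SE, adjusted p 0.00629).

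Ier3 (ENSMUSG00000003541, chromosome 17, 35821684 to 35822923, plus strand), a survival factor, was the gene without a call in Reloading against Unloading. It had 5.69 and 6.01 CPM in Unloading and 7.90, 7.01 and 5.96 CPM in Reloading, where Reloading 3 fell between the Unloading libraries. The log2 fold change was 0.24 ± 0.15 (SE, adjusted p 0.225, edgeR), with adjusted p-values from 0.0183, when libraries were scaled to their totals only, to 0.598. Control lay lowest, at 4.85, 5.06, 4.57 and 4.80 CPM, and did not overlap with either group. Reloading was above Control by a log2 ratio of 0.52 ± 0.13 (SE, adjusted p 0.00498), whereas Unloading against Control, 0.28 ± 0.15 (SE, adjusted p 0.251), did not pass.

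Dusp1 (ENSMUSG00000024190, chromosome 17, 26505590 to 26562128, minus strand) had 70.4 and 86.3 CPM in Unloading, 97.9, 111 and 112 CPM in Reloading and 80.5, 88.9, 95.1 and 108 CPM in Control. Reloading lay above Unloading and overlapped with Control. The log2 fold change against Unloading was 0.45 ± 0.12 (SE, adjusted p 0.00732, edgeR), and the adjusted p ran from 0.000131 to 0.106. The call was lost without Unloading 1 (adjusted p 0.106) and with the description numbers as a replicate block (adjusted p 0.0583). Against Control the log2 ratio of 0.20 ± 0.10 (SE, adjusted p 0.109) did not pass, but it was 0.44 with an adjusted p of 0.000969 when libraries were scaled to their totals only, in a range from 0.000969 to 0.264. Exons of Dusp1 share 11 bases with Ergic1 on the other strand, and the reads were counted without regard to strand.

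**Figure D2:**
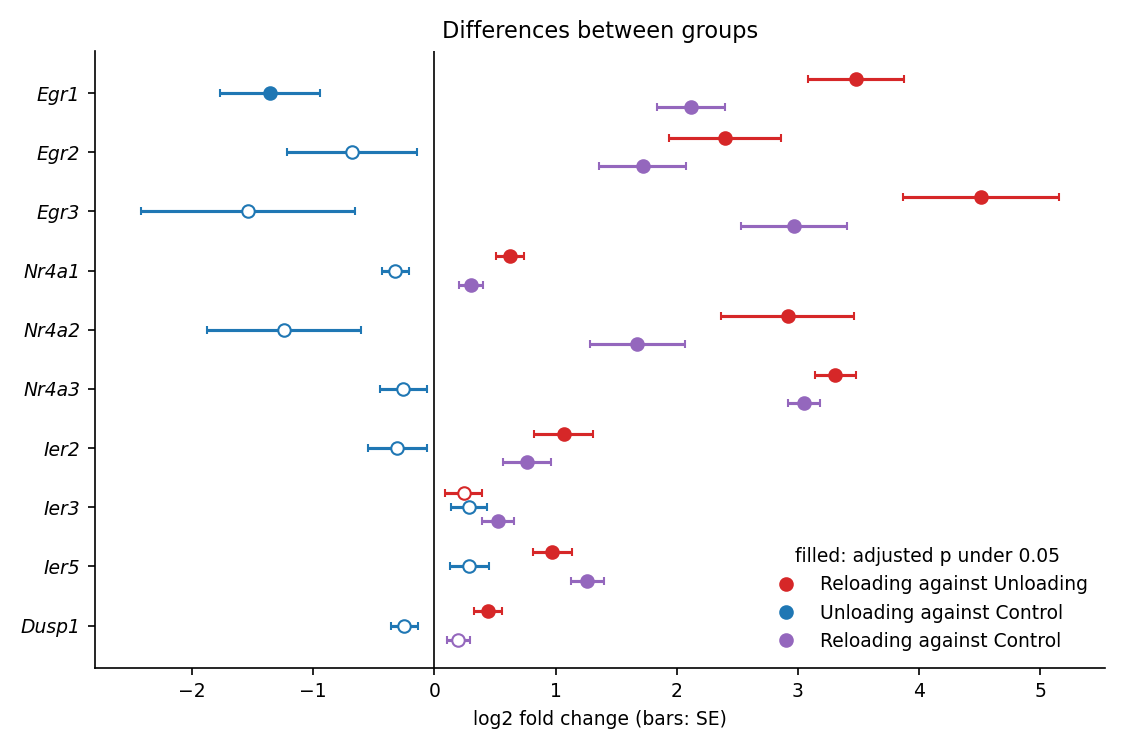
Log2 fold changes (x axis) of the 10 genes (y axis) with standard errors as bars for the 3 comparisons, which share samples. Filled points have an adjusted p under 0.05 in edgeR's quasi-likelihood test. The red points of Egr3, Egr1, Nr4a3, Nr4a2 and Egr2 lie above 2, and 8 of the 10 blue points for Unloading against Control lie below 0 although Egr1 alone is filled.

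Overlap between libraries gave the same picture as the tests for most genes. In Reloading against Unloading, 9 of the 10 genes had every Reloading library above both Unloading libraries, as did 31.0% of all tested genes. Against Control 8 of the 10 did, as did 24.2% of all tested genes, and the exceptions were Nr4a1 and Dusp1. Egr2, Egr3 and Nr4a2 count among these genes in both comparisons, although they passed the filter on low counts only through the Reloading libraries. Of the 7 genes that pass without Reloading, Ier3 alone overlapped with Unloading, and Nr4a1 and Dusp1 overlapped with Control. In Unloading against Control, Egr1, Egr3, Nr4a1 and Nr4a2 had both Unloading libraries below all 4 Control libraries, which held for 16.6% of all tested genes, and Ier3 had both above, which held for 16.4%. In that comparison none of the 10 was called higher and 1 was called lower, beside 4.40% and 5.50% of all tested genes.

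Within groups the genes differed in how far libraries spread. The pooled SD of log2 CPM was 0.68 for Egr1, 0.57 for Nr4a2, 0.53 for Egr3, 0.43 for Egr2 and 0.36 for Ier2, all at percentile 83.7 or above among tested genes. It was 0.12 for Ier3 and 0.16 for both Nr4a1 and Dusp1, near or below the median of 0.17 over all tested genes. Reloading 3 was the lowest Reloading library for 8 of the 10 genes, with Nr4a1 and Dusp1 as the exceptions, and its median deviation from the group mean was -0.28, beside 0.00 over all tested genes. Control 1, the library with the fewest reads, was the lowest Control library for 7 of the 10. Control 2, which held skin transcripts, was the highest for 6 of the 10, and without Control 2 and Reloading 1 the count of genes higher in Reloading than in Unloading was still 9.

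**Figure D3:**
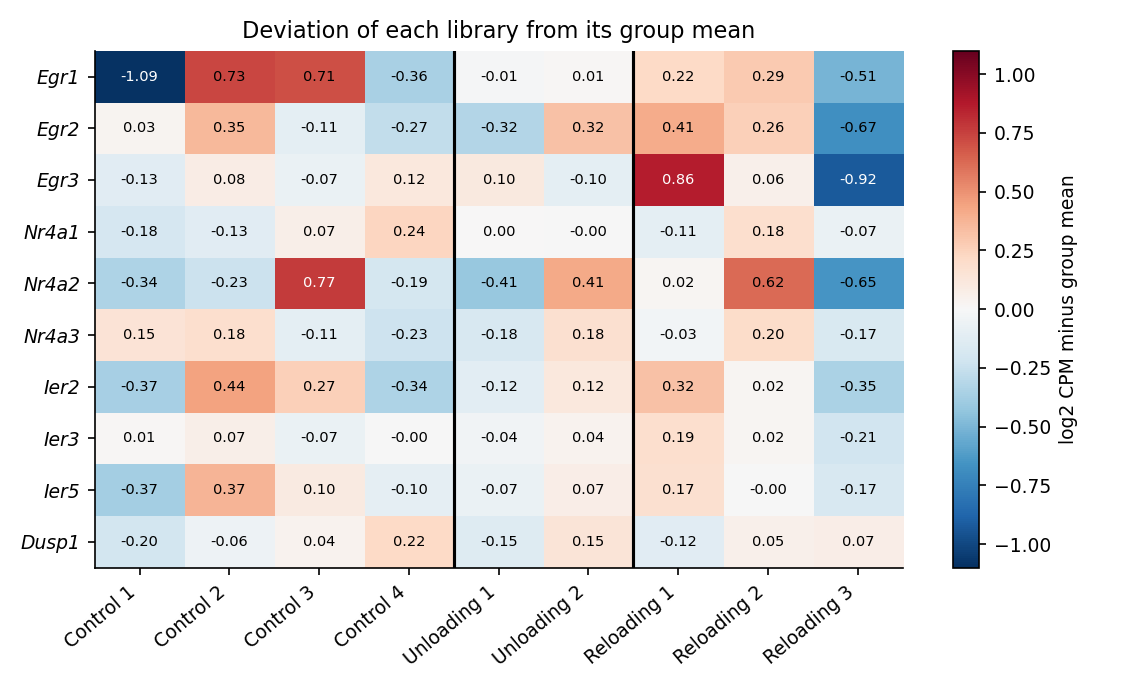
Deviation of each library (columns) from the mean of its group in log2 CPM for the 10 genes (rows), with each value printed in its cell and black lines between Control, Unloading and Reloading. Reloading 3 is blue, below its group mean, for every gene except Dusp1, and the widest deviations belong to Egr1 in Control 1 and to Egr3 in Reloading 1 and Reloading 3.

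Gene structure did not enter the choice of the genes and varied among them. The genomic span was under 10 kb for 6 of the 10, the Egr and Ier genes, beside 33.2% of tested genes. Nr4a2 spans 17.2 kb, and Nr4a1, Nr4a3 and Dusp1, with 20.5, 41.3 and 56.5 kb, lay above the median of 19.5 kb over all tested genes. A span here runs over all annotated exons of a gene. The promoter windows used for Nr4a1 and Dusp1 lie inside these spans, so the distance from those start sites to the gene's end is shorter. Ier2 and Ier5 have a single exon. The pentamer ATTTA, a letter pattern of unstable transcripts, occurred in the longest annotated 3′ end of 9 of the 10 genes and of 72.2% of the 12202 tested genes with such an end of at least 100 bases. The median was 2.17 per kilobase for the 10 genes, beside 1.25 over those 12202 genes. The densest were Ier3 with 8.16, Dusp1 with 5.80 and Nr4a1 with 5.52 per kilobase, the 3 genes with the smallest log2 fold changes in Reloading against Unloading. Ier2 had none. These counts of letters were given no test.

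Other immediate-early genes, chosen from general knowledge but with earlier results of these data known, moved in the same comparison. Of 41 such genes 40 were tested, and 28 were higher and 4 lower in Reloading than in Unloading, with a median log2 fold change of 0.97 beside 0.03 over all tested genes. Fosb, Fosl1 and Ptgs2 passed the filter on low counts only through the Reloading libraries. Of the other 37 genes 25 were higher and 4 lower, with a median of 0.85, while 17.9% of the 14141 genes that pass without Reloading were higher. Atf3, a stress-responsive factor of the CREB family, stood at 4.01 CPM in Unloading (SD 0.0538, n = 2) and at 197 CPM in Reloading (SD 34.7, n = 3), a log2 ratio of 5.61 ± 0.20 (SE, adjusted p 1.44e-10, edgeR). Fosl1, an AP-1 subunit, had at most 1 count in each Unloading library and 15 to 24 counts in the Reloading libraries, a ratio of summed reads of 43.7 with a 95% exact interval from 7.53 to 1754. Arc, first known from synapses, had a log2 ratio of 3.60 ± 0.35 (SE, adjusted p 2.6e-06). The AP-1 genes Fos and Jun had 2.20 ± 0.39 and 0.76 ± 0.15 (SE, adjusted p 0.000524 and 0.00106), and Ier5l, the relative of Ier5, had 1.30 ± 0.28 (SE, adjusted p 0.00198).

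The lower genes of that list were Pim1, Gadd45b, Cebpd and Sgk1. Pim1, a survival kinase, fell by 0.81 on the log2 scale (adjusted p 0.00247, edgeR), Gadd45b, a growth arrest gene, by 0.79 (adjusted p 5.4e-05) and Cebpd, a factor of the acute phase response, by 0.77 (adjusted p 0.0322). Sgk1, a kinase induced by glucocorticoids, fell by 0.75 (adjusted p 0.000309). With plain library totals all 4 stayed below 0 and only Cebpd did not pass (adjusted p 0.118). Against Control, 29 of the 37 genes that pass without Reloading were higher in Reloading and 3 lower, with a median of 0.91. Among all 14141 genes that pass without Reloading, 21.5% were higher in this comparison. Between Unloading and Control 6 of these 37 genes were higher and none lower, and the median was 0.09, while 4.62% of the 14141 genes were higher.

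The relatives of Dusp1, other phosphatases of MAP kinases, differed among themselves. Of 8 tested, 6 were higher and 2 lower in Reloading than in Unloading, with a median log2 fold change of 0.78. Dusp2 and Dusp5 passed the filter only through the Reloading libraries, and of the other 6 genes 4 were higher and 2 lower, with a median of 0.54. Of the 14141 genes that pass without Reloading, 17.9% were higher. Dusp5, which is specific for ERK and is nuclear like Dusp1, had 3 counts in all in Unloading and 143 in Reloading, a ratio of 36.5 with a 95% exact interval from 12.2 to 179. Dusp2 had a log2 ratio of 2.77 ± 0.47 (SE, adjusted p 0.000332, edgeR), Dusp4 1.09 ± 0.39 (SE, adjusted p 0.0381) and Dusp16 0.46 ± 0.10 (SE, adjusted p 0.00251). Dusp7 and Dusp10, which acts on p38 and JNK, were lower, at -0.57 ± 0.19 and -0.51 ± 0.15 (SE, adjusted p 0.027 and 0.017). Both stayed below 0 when libraries were scaled to their totals only, but neither passed then, with adjusted p-values of 0.169 and 0.186. Of the 6 genes that pass without Reloading, 1 was higher and 3 lower in Reloading than in Control, with a median of -0.14. Against Control, Dusp16 was at -0.42 ± 0.10 in Unloading (SE, adjusted p 0.0159, edgeR). In Reloading it was at 0.04 ± 0.09 against Control (SE, adjusted p 0.703, but 0.011 under library totals).

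Kinases and factors that act before the immediate-early genes showed no common direction. Of 23 tested, 4 were higher and 7 lower in Reloading than in Unloading, with a median of -0.10, and under scaling to library totals 7 were higher and 1 lower. Among all tested genes 18.5% were higher and 19.0% lower with TMM. Mrtfa, a coactivator of SRF, rose by a log2 ratio of 0.84 ± 0.11 (SE, adjusted p 5.5e-05, edgeR), Elk3, a ternary complex factor, by 0.57 ± 0.15 (SE, adjusted p 0.00678) and Mapk3, the kinase ERK1, by 0.50 ± 0.14 (SE, adjusted p 0.00913). Mef2c, a muscle transcription factor, fell by 0.90 on the log2 scale (adjusted p 2.88e-06), also under library totals, and Mef2a and Elk4 fell by 0.44 and 0.41 (adjusted p 0.000504 and 0.00248), which did not hold under library totals, at adjusted p-values of 0.0538 and 0.176. Srf itself had 0.12 ± 0.09 (SE, adjusted p 0.314, but 0.00314 under library totals) and Creb1 -0.28 ± 0.12 (SE, adjusted p 0.0739).

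A further list held partners and corepressors of the Egr and Nr4a proteins, together with heat shock factor and phosphatase genes, on which Ier5 acts. Of its 10 genes, 4 were higher and 2 lower in Reloading than in Unloading, beside 18.5% and 19.0% of all tested genes. Nab2, an Egr corepressor that is itself a described Egr target, stood at 1.98 CPM in Unloading (SD 0.367, n = 2) and at 5.38 CPM in Reloading (SD 0.805, n = 3), a log2 ratio of 1.42 ± 0.24 (SE, adjusted p 0.000372, edgeR). Nab1 had 0.55 ± 0.18, Hsf1 0.25 ± 0.09 and Ppp2r2a, a phosphatase subunit, 0.23 ± 0.08 (SE, adjusted p 0.0252, 0.0354 and 0.0315). Rxra and Rxrg, retinoid receptors that pair with Nr4a1 and Nr4a2, fell by 0.40 and 0.36 on the log2 scale (adjusted p 0.000905 and 0.014), calls that were lost under library totals, at adjusted p-values of 0.121 and 0.428.

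Described Egr targets were mostly higher. Of 10 genes 8 were higher and none lower in Reloading than in Unloading, with a median log2 fold change of 1.34. The shares over all tested genes were 18.5% and 19.0%. Thbs1, a matrix glycoprotein, had 2.33 ± 0.22 (SE, adjusted p 2.6e-06, edgeR) and Pdgfb, a growth factor, 1.61 ± 0.15 (SE, adjusted p 1.57e-06). The smaller called changes were 1.33 for Icam1, 0.70 for Fn1 and 0.65 for Vegfa, while F3 and Pdgfa did not pass, at adjusted p-values of 0.396 and 0.972. Against Control 7 were higher and none lower, beside 22.1% and 21.3% of all tested genes. Vegfa was lower in Unloading than in Control (log2 ratio -0.57, adjusted p 0.00374).

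Fuel-use genes linked to Nr4a receptors in muscle were not higher. Of 12 genes none was higher and 6 were lower in Reloading than in Unloading, with a median log2 fold change of -0.17, while under library totals 3 were higher and 2 lower. With TMM, 18.5% of all tested genes were higher and 19.0% lower. Prkag3, a muscle subunit of AMP-activated kinase, fell by 0.92 and Phka1, a subunit of phosphorylase kinase, by 0.60 on the log2 scale (adjusted p 5.34e-06 and 2.56e-05, edgeR), and both also passed under library totals. Bpgm, Pygm, Fbp2 and Pfkm fell by 0.31, 0.31, 0.28 and 0.22, and none of these 4 passed under library totals, where Pfkm turned to 0.03. Fibre markers moved in the same direction, as 6 of 7 were lower in Reloading than in Unloading, with summed levels of 111944 to 124245 CPM against 160670 to 166062 CPM, and their part in these values was not tested.

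**Figure D4:**
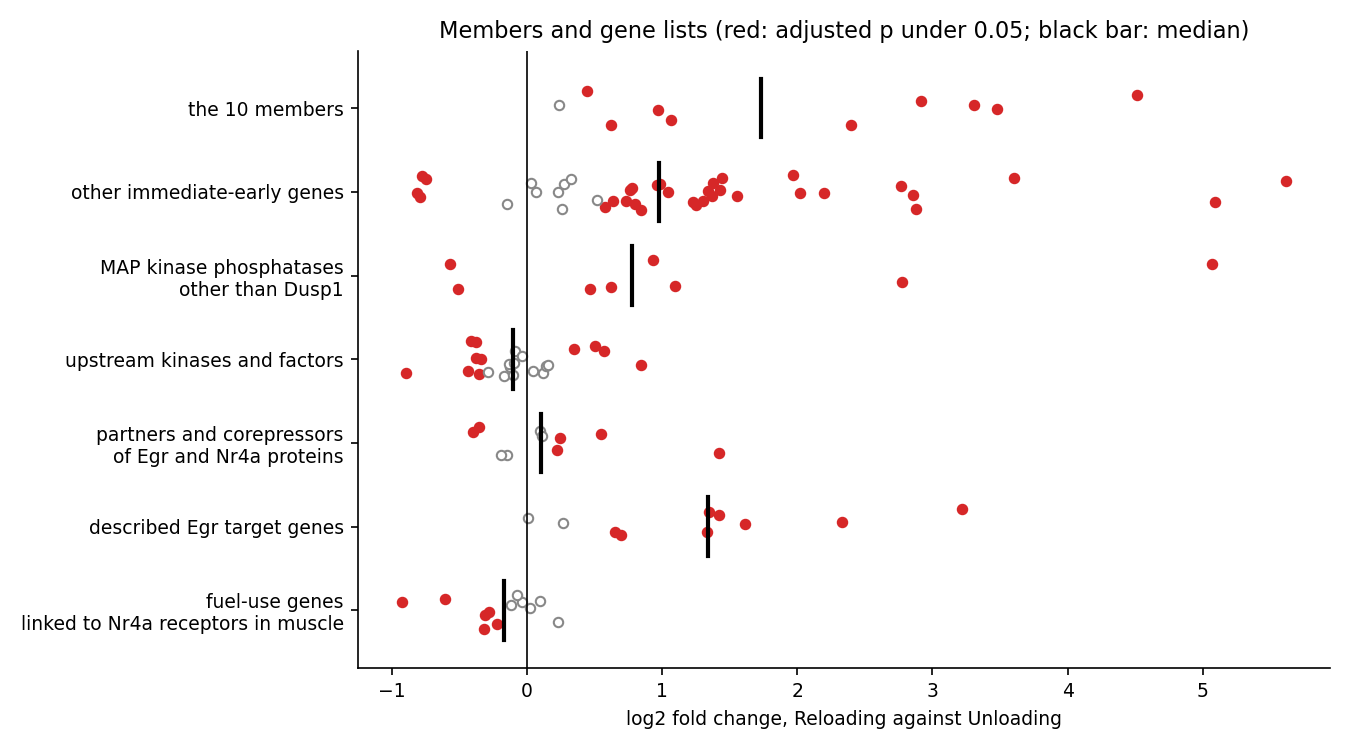
Log2 fold changes for Reloading against Unloading (x axis) of the 10 genes and of the tested genes of 6 gene lists (rows), with red points for an adjusted p under 0.05, open points for the others and a black bar at each median. The medians of the 10 genes, of other immediate-early genes and of described Egr targets lie at 1.73, 0.97 and 1.34, and that of the fuel-use genes lies at -0.17. The medians of the 10 genes and of other immediate-early genes include genes that passed the filter on low counts only through the Reloading libraries.

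Markers of several other cell types in the muscle were also mostly higher in Reloading than in Unloading, where 18.5% of all tested genes were higher. Macrophage markers were higher for 7 of 8 genes, with summed levels of 165 to 187 CPM in Reloading and 85.5 to 86.6 CPM in Unloading. Endothelial markers were higher for 5 of 6, with 221 to 274 against 126 to 127 CPM, and smooth muscle markers for 4 of 5, with 105 to 122 against 50.2 to 55.9 CPM. Tagln and Cnn1, among the latter, passed the filter only through the Reloading libraries, and of the other 3 smooth muscle markers 2 were higher. Fibroblast markers were mixed, with 2 higher and 2 lower of 5. Of 4 satellite cell markers 3 were tested and 1 was higher, and of 6 neutrophil markers 2 were tested and none was called. Among the untested ones, Cxcr2 had 0 counts in each Unloading library and 4 to 9 in the Reloading libraries. Csf3r had 2 in each Unloading library and 5 to 16 in the Reloading libraries. Ly6g and Retnlg had at most 1 and 4 counts in any library. Immediate-early genes can be expressed in each of these cell types, and the part of the cell types in the values of the 10 genes was not tested.

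For each of the 10 genes the genes with the most similar profile over the 9 libraries were looked up among genes with a mean log2 CPM of at least 2, as a description. Nr4a3 was closest to Hspa1b, an inducible heat shock protein, and to Abra, an activator of SRF signalling in muscle (Pearson r 0.994 and 0.992). Egr1 was closest to Slc27a4 and Wipi1 (r 0.984 and 0.983), Egr2 to Crtap and Cfp (r 0.990 and 0.983), and Egr3 to Arpc3 and Cd63-ps (r 0.993 for both). Nr4a2 was closest to Myod1, a myogenic factor, and P4ha1 (r 0.981 and 0.975), and Nr4a1 to Jmjd6 and Pycrl (r 0.960 and 0.938). Ier2 was closest to Bcl7a and Ehd2 (r 0.986 and 0.973), Ier3 to Samd4b and Slc30a5 (r 0.982 and 0.981), Ier5 to Eif6 and Arf6 (r 0.993 and 0.988), and Dusp1 to Mcfd2 and Kctd5 (r 0.941 and 0.939). The points share the 3 group means, so that many genes reach a high r.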

How the data were processed

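Polyadenylated RNA of 9 gastrocnemius samples was sequenced. The authors aligned reads to GRCm38.p6 with STAR 2.7.3a and counted them per gene with featureCounts 2.0.3 on the Ensembl release 102 annotation, without strand. The methods describe single reads, the labels paired ends. The deposited counts are raw and unfiltered, with each gene's exon length, and each total gives the depth. The authors' mean signal per gene, the mean of counts divided by size factors, served only to check the table, and symbols came from the same deposited table. The deposited fold changes and p-values were not used.

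Genes were kept by filterByExpr (minimum count 10, minimum total 15), scaled by TMM and tested with edgeR 4.0.16 in R 4.3.3 (quasi-likelihood F-test, two-sided, group as the only term, all 9 libraries). Adjustment for multiple tests (Benjamini-Hochberg) ran over all 14851 genes, with a threshold of 0.05. Standard errors came from the F statistic, and log2 CPM used a prior count of 2. The labels do not tie samples to animals, so p-values measure the spread between these samples. The procedure was tested on simulated data. Alternatives were DESeq2 1.42.0, other scalings, filters and fits, replicate blocks and leaving out libraries.

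The genes and lists were chosen with earlier results of these data known. Named are the 10 genes, Egr4, Ier5l, Fos and Jun, and in each list the 3 largest and 3 smallest called changes of Reloading against Unloading, of which 1 gene is not reported here. Sgk1, Fosb, Ptgs2, F3, Pdgfa, Srf, Creb1 and the named markers were added after their values were seen. Whether replicate numbers pair samples was checked by the correlation of deviations from group means. Title numbers gave r from -0.20 to 0.08. Description numbers gave 0.36, 0.14 and 0.16 for Control with Reloading, but at most 0.08 with Unloading. The 0.36 belongs to Control 2 with Reloading 1, the libraries in which skin transcripts stood out. Whether it reflects pairs or these transcripts was not tested. Samples were not treated as pairs in the reported fit, and the replicate block by description changed no call in Reloading against Control.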

Additional observations from a re-analysis of the deposited data

Results flagged for a closer look

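In the Control group, Nr4a2 had 1 library apart from the others. Control 3 held 1.14 CPM of Nr4a2 (16 counts), and the nearest of the other Control libraries held 0.515 CPM (6 counts). The gap took 0.908 of the range of the group, which is above the limit of the Dixon test at the 95% level for 4 samples. Of the 10 genes tested in this way 1 was marked, and chance marks about 1 in 20 groups. Without Control 3 the log2 fold change of Nr4a2 for Reloading against Control was 2.13, compared with 1.67 with it, and that for Unloading against Control was -0.78, compared with -1.24, and did not pass in either case.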

How the results depend on the processing

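The 10 genes were refitted under 18 alternatives in 3 comparisons. Of the 540 values so obtained, 516 kept their direction and their side of the threshold, 16 lost the call, 8 gained it and none changed sign. The count of genes higher in Reloading than in Unloading stayed between 8 and 10, as did that against Control. The count of genes lower in Unloading than in Control, 1 in the reported fit, was 0 with DESeq2 size factors, library totals only, the robust fit, only the 2 groups compared or without both libraries with skin transcripts, and 2 with no filter on low counts. Leaving out 1 library gave 0 to 2. DESeq2's Wald test also called 1, but this was Nr4a1 and not Egr1. The cause was not tested. With a replicate block by title 9 genes were higher in Reloading than in Unloading and 10 than in Control, and with a replicate block by description 8 and 9. Besides Dusp1, these blocks changed no call. Of 36 counts over the gene lists, 16 moved by more than 1.5 times with library totals only. Few reads limit Egr2, Egr3 and Nr4a2, with 11, 4 and 9 counts in Unloading in all. With 2 Unloading libraries, the fits without 1 of them take the spread of the other groups for the remaining one. The interval of each read ratio covers counting error only.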
